A study of Mus musculus with 4 samples.

Results

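The genes described here are 8 marker genes of B cells and plasma cells, chosen by symbol from the 39017 genes of the count table. They are Ms4a1, Cd79a and Cd79b of the B cell surface, Pou2af1 and Mzb1, and the immunoglobulin constant genes Ighm, Igha and Igkc, and each symbol matched 1 row. They were measured in bulk RNA from 4 lung tumors of male C57BL/6 KP mice, all in the group named Control, with 1 library per tumor. KP mice carry p53 Fl/Fl alleles among others and form lung tumors once Cre recombinase is delivered, which also deletes Trp53. Each mouse received 1500 viral units of lenti.PGK-Cre into the trachea, and 22 weeks and 5 days later the tumors were cut out of the lung and made into cell suspensions, from which RNA was extracted. The PGK promoter is not specific to a cell type, and per the study's methods these suspensions were not depleted of CD45-positive cells. The labels also give the genotype as heterozygous fl/wt without naming the gene, and in the methods a control mouse has no floxed Slc2a1 allele or 1 of them. Every tumor shared these treatments and there was no second group, so the comparisons are between tumors and between genes within a tumor. Tumors are numbered 1 to 4 as in the labels.

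B cells carry an antibody on their surface, built of heavy and light chains and held in a complex with the signalling pair Cd79a and Cd79b. After activation some become plasma cells, which lose most surface markers and fill much of their RNA with transcripts of secreted immunoglobulin. A heavy chain gene begins with the constant region of IgM (Ighm) and can be switched to IgG, IgE or IgA (Igha), while the light chain is kappa (Igkc) or lambda. In the lung, IgA joined by the J chain is carried across the epithelium by the receptor Pigr.

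Total counts were between 8151613 and 8799007 per tumor, and the largest effective library size was 1.12 times the smallest. CPM below means counts scaled to an effective size of 1000000, and 3 counts, taken as the floor, correspond to 0.330 to 0.370 CPM. The lung tumor label was checked on its markers: the 5 alveolar type 2 genes summed to between 30210 and 56800 CPM and the 5 pan-leukocyte genes to between 101.6 and 249.2 CPM. The 8 B cell and plasma cell genes together gave 23.55, 36.71, 122.5 and 43.53 CPM in tumors 1 to 4. In bulk tissue, fewer cells of a type and less RNA per cell cannot be told apart.

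Igkc had the highest mean of the 8 genes, although Cd79b exceeded it in tumor 4 (15.11 against 12.01 CPM), and all 3 immunoglobulin genes were highest in tumor 3, whereas the surface and regulatory genes, other than Cd79b, were close to the floor. Of the 8 genes, 4 had a mean of at least 1 CPM and were tested (Cd79b, Ighm, Igha and Igkc). The other 4 (Ms4a1, Cd79a, Pou2af1 and Mzb1) had 15 to 29 counts over all 4 tumors. A pair of tests asked how far the tumors differed. The first compared the 4 counts of a gene with counting noise alone (chi-square test against Poisson expectations), and the second compared them with the spread usual for genes of the same abundance (edgeR goodness of fit with the trended dispersion). Both were adjusted over all 14225 genes tested by the Benjamini-Hochberg method at a threshold of 0.05. All 4 tested genes varied beyond counting noise, beside 76.7% of all genes tested. Igha and Igkc also varied beyond the usual spread, so 2 of 4 were called there, beside 3.18% of all genes tested. Without tumor 3, 0 of the 4 genes were called by edgeR beyond the usual spread, beside 312 of 14120 genes tested. In that test 0 of the 4 had an unadjusted p under 0.05, beside 895 of the 14120.

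**Figure D1:**
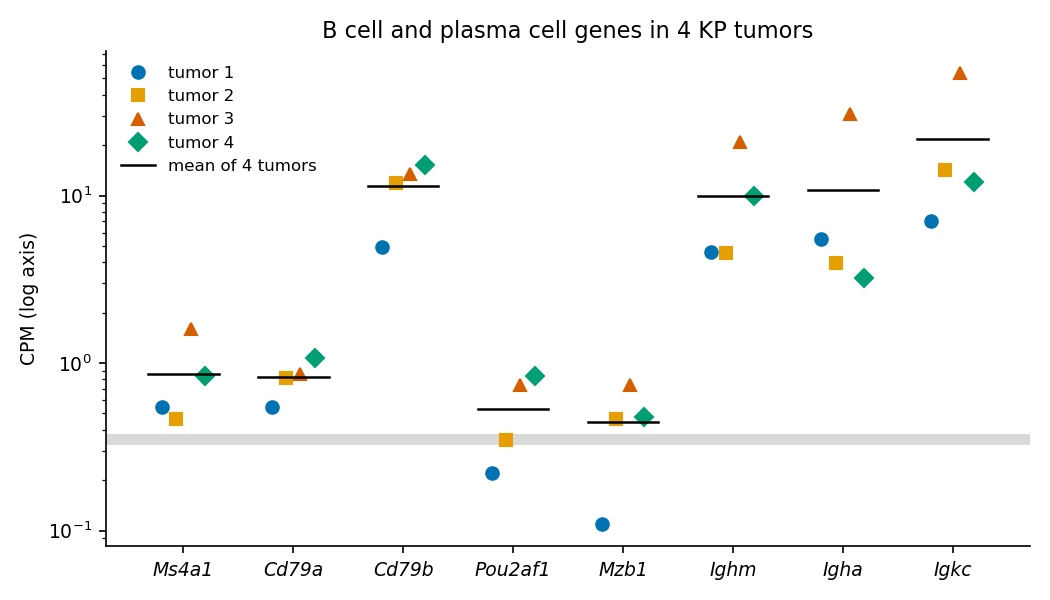
Level of the 8 B cell and plasma cell genes in CPM (log axis) in each of 4 KP tumors. Points are tumors, black lines are means of 4 tumors, and the grey band marks the floor of 3 counts, 0.330 to 0.370 CPM. Ighm, Igha and Igkc were highest in tumor 3, at 20.86, 30.6 and 53.68 CPM, and Cd79b was lowest in tumor 1, at 4.952 CPM.

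Among the surface genes, Ms4a1 encodes CD20, the membrane protein of mature B cells (chromosome 19, 11249675 to 11266241, minus strand). It had 5, 4, 13 and 7 counts in tumors 1 to 4, or 0.8629 ± 0.5186 CPM (SD, n = 4). Tumor 3 was highest, but at this depth the 4 counts could not be told from counting noise (adjusted p = 0.0849 without a filter on low genes, a setting in which 53.5% of 21175 genes were called). Cd79a (chromosome 7, 24897381 to 24902197, plus strand) had 5, 7, 7 and 9 counts, or 0.8244 ± 0.214 CPM (SD, n = 4). It was the steadiest of the 8 genes, with an adjusted p of 0.729 against counting noise in the same setting, and its level in tumor 3 was 1.065 times the mean of the others. Of its 85-base windows, 3.06% also occur in the annotated gene Gm32220.

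Cd79b (chromosome 11, 106311341 to 106314762, minus strand) encodes the partner of Cd79a in the receptor complex, yet its counts were far higher. It had 45, 103, 109 and 127 counts in tumors 1 to 4, or 11.37 ± 4.466 CPM (SD, n = 4). Cd79b counts were 9.0, 14.7, 15.6 and 14.1 times those of Cd79a, and no other annotated gene shared a stretch of 85 bases, the read length, with Cd79b. Tumor 1 stood below the other 3 tumors, at 0.3666 times their mean. Cd79b varied beyond counting noise (adjusted p = 9.79e-10) but not beyond the usual spread (adjusted p = 1 by edgeR), and without tumor 1 it was no longer called beyond counting noise (adjusted p = 0.268). The summed alveolar type 2 genes were also lowest in tumor 1, at 0.567 times the mean of the others, and the pan-leukocyte genes at 0.583 times, and their part in the level of Cd79b was not tested.

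Pou2af1, a coactivator of octamer-binding factors in B cells, lies on chromosome 9 from 51213708 to 51240080 on the plus strand. It had 2, 3, 6 and 7 counts in tumors 1 to 4, so that tumors 1 and 2 did not exceed the floor (adjusted p = 0.328 against counting noise without the filter). Beyond the usual spread, none of the 4 genes under 1 CPM was called in the unfiltered setting (adjusted p = 1 by edgeR for each), in which 2.13% of 21175 genes were.

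Mzb1 encodes a chaperone of the endoplasmic reticulum that assists antibody secretion, and lies on chromosome 18 from 35647267 to 35649367. It had 1, 4, 6 and 4 counts in tumors 1 to 4, which did not differ beyond counting noise (adjusted p = 0.375 without the filter). Its count is uncertain, since 57.2% of its exon length is shared with the annotated gene SPATA24 on the same strand.

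Ighm, the constant region of IgM (chromosome 12, 113418558 to 113422730, minus strand), had 42, 39, 169 and 84 counts in tumors 1 to 4, or 9.999 ± 7.674 CPM (SD, n = 4). Tumor 3 was highest and tumor 4 second, and tumors 1 and 2 lay close together at 4.621 and 4.53 CPM. The spread exceeded counting noise (adjusted p = 1.38e-31) but not the usual spread (adjusted p = 0.281 by edgeR).

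Igha, the constant region of IgA (chromosome 12, 113254830 to 113260236, minus strand), had 50, 34, 248 and 27 counts, or 10.82 ± 13.23 CPM (SD, n = 4). Tumor 3 held 7.251 times the mean of the other tumors, and the other 3 tumors ranged from 3.211 to 5.502 CPM. Igha varied beyond counting noise (adjusted p = 1.67e-87) and beyond the usual spread (adjusted p = 0.00124 by edgeR). Without tumor 3 neither call remained (adjusted p = 0.0881 and 1).

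Igkc, the kappa constant region (chromosome 6, 70726435 to 70726966, plus strand), had 64, 122, 435 and 101 counts, or 21.73 ± 21.51 CPM (SD, n = 4). Tumor 3 was again highest, at 4.847 times the mean of the others, and tumor 1 was lowest. The adjusted p was 2.42e-116 against counting noise and 0.000567 against the usual spread (edgeR), and without tumor 3 the second was 1.

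To compare genes with one another, CPM was divided by exon length in kilobases. On this scale the order was Igkc (40.84 CPM per kilobase), Cd79b (7.944), Ighm (5.302), Igha (4.054), Cd79a (0.5658), Mzb1 (0.3685), Pou2af1 (0.21) and Ms4a1 (0.1395), as means of 4 tumors. Igkc exceeded Cd79b by 2.03 ± 0.989 on the log2 scale (SD, n = 4) and was higher in 4 of 4 tumors. Cd79b and Ighm differed by 0.761 ± 0.849 (SD, n = 4), Ighm and Igha by 0.754 ± 0.961, and in tumor 3 both differences had the opposite sign. Igha exceeded Cd79a by 2.123 ± 1.531 in 4 of 4 tumors. Cd79a was above Mzb1 in 3 of 4 tumors, and Mzb1 above Pou2af1 and Pou2af1 above Ms4a1 in 4 of 4. Neighbours were compared within tumors by flipping the signs of the 4 differences in every way (exact permutation test, two-sided). At least 2 of the 16 sign patterns are always as extreme as the observed one, so this exact permutation test could not pass 0.05 for any neighbours (adjusted p from 0.2 to 0.25 over 8 comparisons). The last step depended on the length used: with the longest transcript in place of all exons, Ms4a1 stood at 0.2806 CPM per kilobase and Pou2af1 below it by a log2 difference of -0.367.

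The other antibody genes did not all follow tumor 3. Jchain, which links IgA and IgM into polymers, had 32, 47, 256 and 42 counts in tumors 1 to 4. Its level in tumor 3 was 6.781 times the mean of the others, and it was called in both tests (adjusted p = 4.7e-87 against counting noise and 0.00189 against the usual spread, edgeR). As with Igha, both calls were lost without tumor 3 (adjusted p = 0.188 and 1). Ighg1, the constant region of IgG1, had 61, 142, 81 and 83 counts and was highest in tumor 2, with tumor 3 at 0.9066 times the mean of the others. Ighg1 varied beyond counting noise (adjusted p = 1.53e-08) but not beyond the usual spread (adjusted p = 1 by edgeR). Ighg2b had 10, 57, 18 and 2 counts, again highest in tumor 2, and stood at the threshold against the usual spread (adjusted p = 0.049 by edgeR, with 0.199 when the dispersion was fitted by DESeq2). Ighg3 and Ighe did not exceed 3 counts in any tumor and were not detected. Of the 12 constant genes listed, 9 were in the table and 5 were tested, of which 5 varied beyond counting noise and 3 beyond the usual spread, beside 76.7% and 3.18% of all genes. Ighd, Iglc1 and Iglc3 were not analysed here.

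The mix of antibody classes therefore differed between tumors. Shares below are of the counts of all heavy chain constant genes, with Wilson intervals at 95% confidence, which cover counting error only. Ighm made up 25.6%, 14%, 32.6% and 38.7% of these counts in tumors 1 to 4, or 27.7 ± 10.6% (SD, n = 4). Igha made up 30.5%, 12.2%, 47.9% and 12.4%, and its interval in tumor 3 (43.6 to 52.2%) did not overlap those of the other tumors. The IgG genes together made up 43.9%, 73.7%, 19.5% and 48.8%. By counts, IgG was thus the largest class in tumors 1, 2 and 4, and IgA the largest in tumor 3. Divided by exon length, Igha and Ighm were nearly equal in tumor 3, at 11.47 and 11.06 CPM per kilobase. The lead of IgA over IgM there was thus clear by counts and slight per kilobase. Within IgG, Ighg2b reached 20.5% of heavy chain counts in tumor 2 (16.2 to 25.6%), and Ighg2c reached 8.29% in tumor 4 (5.31 to 12.7%) but at most 2.16% elsewhere. Igha counts were 0.82, 0.239, 3.06 and 0.325 times those of Ighg1.

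**Figure D2:**
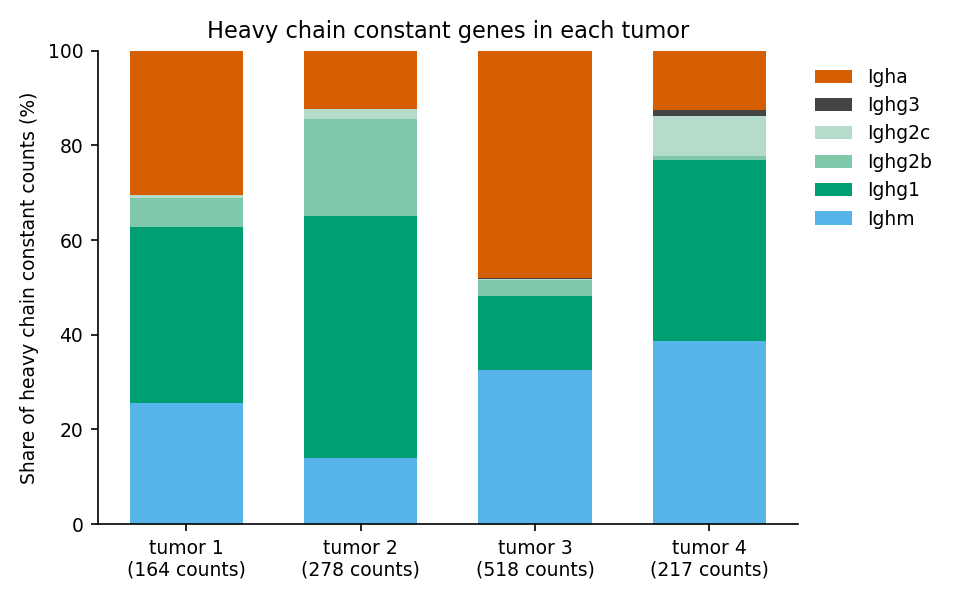
Share of each heavy chain constant gene in all heavy chain constant counts (percent), 1 bar per tumor, with the number of counts under each bar. Igha made up 47.9% in tumor 3 and 12.2 to 30.5% in the other tumors, and Ighg1 was largest in tumor 2, at 51.1%.

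Light chains were mostly kappa. Igkc held 97.0 to 98.4% of the light chain constant counts in the 4 tumors, and per kilobase it exceeded Iglc2 by 5.579 ± 0.504 on the log2 scale (SD, n = 4), in 4 of 4 tumors. Iglc2 had only 2, 2, 7 and 2 counts. The variable genes gave a lower kappa share, of 84.8%, 83.9%, 86.6% and 95.6%, with Iglv1 at 5, 10, 35 and 2 counts. Lambda constant genes other than Iglc2 were not analysed here, so the shares from constant genes are not a full kappa to lambda ratio.

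Variable genes show which segments the antibodies of a tumor were built from. Of 104 Igkv genes, 13, 15, 29 and 20 had counts in tumors 1 to 4, and of 114 Ighv genes 6, 12, 20 and 14. In tumor 3, Igkv1-117 alone held 143 of 232 kappa variable counts, or 61.6% (Wilson interval 55.2 to 67.7%). The most abundant Igkv gene held 32.1% in tumor 1 (Igkv15-103, 9 of 28 counts), 28.8% in tumor 2 (Igkv14-111, 15 of 52) and 23.3% in tumor 4 (Igkv1-117, 10 of 43). The interval of tumor 3 did not overlap those of the other 3 tumors. The effective number of Igkv genes (inverse Simpson number, the number of equally used genes that would give the same concentration) was 6.76, 6.47, 2.57 and 10.4. Igkv1-117 had 0 counts in tumors 1 and 2, which allows up to 3 counts in each. Igkv3-9 and Igkv4-63 followed in tumor 3, with 12 and 10 counts.

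Heavy chain segments were sparser. Ighv5-17 held 24 of 55 counts in tumor 3 (43.6%, interval 31.4 to 56.7%) and had 0 counts in the other 3 tumors. Ighv4-1 led in tumor 2 with 12 of 37 counts, Ighv1-59 in tumor 1 with 5 of 11, and Ighv1-9 in tumor 4 with 4 of 23, and all 4 intervals overlapped. Of 37 Ighv genes with counts in any tumor, 26 had them in 1 tumor and 0 in all 4. Of 47 Igkv genes, 30 had counts in 1 tumor and 3 in all 4. With 11 to 55 Ighv counts per tumor, a gene without counts in a tumor may have been missed at this depth.

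**Figure D3:**
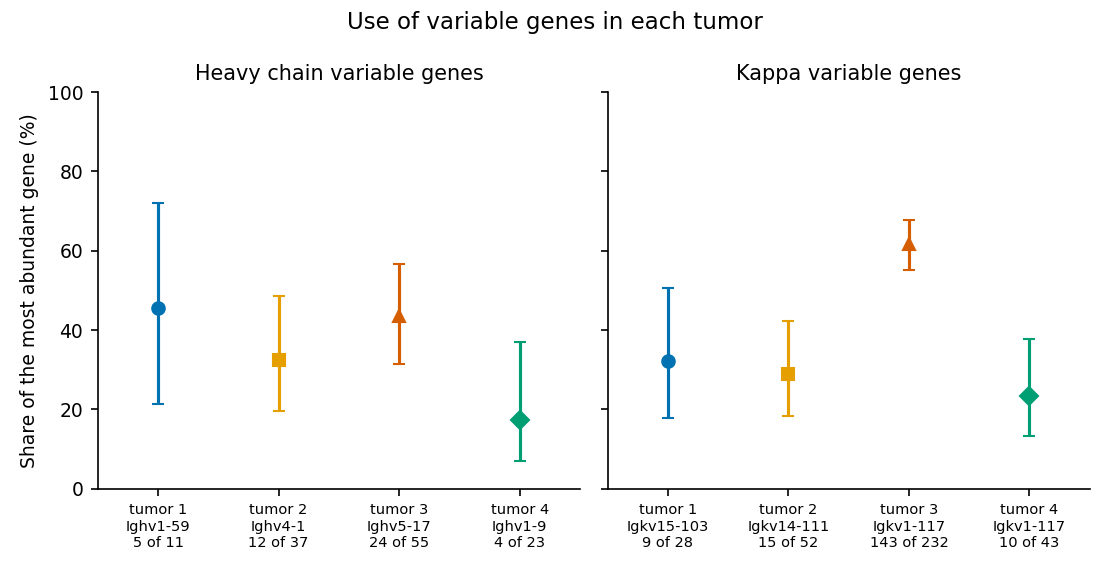
Share of the most abundant heavy chain (left) and kappa (right) variable gene in all counts of its family (percent), per tumor, with Wilson intervals at 95% confidence. Gene names and counts stand under each point, and Igkv1-117 in tumor 3 (61.6%) is the point whose interval lies above those of the other kappa points.

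The germline sequences behind these counts are shown because variable genes resemble one another, so a read can be given to the wrong relative. Igkv1-117 (chromosome 6, 68121046 to 68121827, plus strand) is set beside Igkv1-110 (chromosome 6, 68270485 to 68271267, plus strand), its nearest relative in the table, with which it shares 271 of 280 bases compared at the 3′ end (96.8%). For each pair the ends could be shifted by up to 6 bases to give the best match, without gaps. Ighv5-17 (chromosome 12, 113859149 to 113859670, minus strand) is set beside Ighv5-9-1 (chromosome 12, 113736111 to 113736630, minus strand), with 254 of 280 bases in common (90.7%). The last 120 bases compared are given 5′ to 3′ on the coding strand (GENCODE M21, GRCm38), and capitals mark the bases that differ within a pair.
Igkv1-117: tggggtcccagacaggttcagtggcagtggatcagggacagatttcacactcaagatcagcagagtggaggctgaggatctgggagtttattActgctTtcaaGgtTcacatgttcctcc
Igkv1-110: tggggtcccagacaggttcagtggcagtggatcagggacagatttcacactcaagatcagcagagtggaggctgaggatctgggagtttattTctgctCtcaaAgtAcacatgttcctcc
Ighv5-17: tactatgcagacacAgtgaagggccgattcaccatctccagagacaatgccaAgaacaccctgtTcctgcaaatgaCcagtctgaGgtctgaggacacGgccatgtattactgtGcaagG
Ighv5-9-1: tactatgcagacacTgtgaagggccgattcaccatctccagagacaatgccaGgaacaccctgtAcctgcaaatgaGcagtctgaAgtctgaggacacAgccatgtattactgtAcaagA

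Over the stretch shown, the kappa pair differs at 4 bases and the heavy chain pair at 8. Of the 85-base windows of Igkv1-117, 24.7% also occur in Igkv1-110, which itself had 2, 7, 4 and 1 counts in tumors 1 to 4. Ighv5-17 shares 0.935% of its windows, with Ighv5-4, and Ighv5-9-1 had 0 counts in every tumor. Somatic mutation of antibody genes also moves reads away from the germline sequence. The constant genes were less ambiguous, since Ighm, Igha and Igkc share no window with another annotated gene and Ighg2b shares 0.154% with Ighg3.

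Further B cell genes were read from a list of 13 surface and signalling genes, of which 6 had a mean of at least 1 CPM. Blk, a kinase of the B cell receptor, passed that level only through tumor 3, with 1, 1, 26 and 9 counts. Blk was called beyond the usual spread (adjusted p = 0.0296 by edgeR), but not without the filter (adjusted p = 0.0628 by edgeR), with the dispersion fitted by DESeq2 (0.602) or without tumor 1 or 2 (0.122 and 0.204). The other 5 genes averaged at least 1 CPM over tumors 1, 2 and 4, as did 14033 of all genes tested. Of the 5, 4 varied beyond counting noise, beside 76.8% of those 14033. Beyond the usual spread 0 of the 5 were called, beside 3.11% (edgeR, with 0 of the 5 at an unadjusted p under 0.05). Of these 5 genes, 3 were highest in tumor 3, beside 29.3% of the 14033. Cd22, an inhibitory receptor of B cells, was highest in tumor 3 at 5.677 CPM and lowest in tumor 2 at 1.51 CPM. Fcer2a, the low-affinity IgE receptor CD23, had 25, 41, 96 and 22 counts. Cd72, another inhibitory receptor of B cells, was instead highest in tumor 2, at 71 counts, and Blnk was lowest in tumor 3, at 11.

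Transcription factors of B cells differed in level. Of 7 listed, Ebf1 and Bach2 had a mean of at least 1 CPM, at 1.529 and 8.853 CPM. Bach2, with 81, 43, 101 and 76 counts, varied beyond counting noise, and neither varied beyond the usual spread. Over all genes tested, 76.7% and 3.18% were called in these tests. Pax5, which defines B cell identity, had 1 count over all tumors, and Pou2f2 did not exceed 3 counts in any. Of 6 precursor genes 4 did not exceed 3 counts in any tumor, with Rag1 and Rag2, the recombinases of antibody gene assembly, at 0. Of 6 germinal centre genes 3 were tested: Bcl6 (mean 35.98 CPM), S1pr2 (43.68 CPM) and Mybl1 (5.645 CPM). All 3 varied beyond counting noise, beside 76.7% of all genes tested. Beyond the usual spread 0 were called (edgeR, 0 at an unadjusted p under 0.05), beside 3.18% of all. Only 1, Mybl1, was highest in tumor 3, beside 30.1% of all, and Rgs13 had 0 counts. Of 8 recruitment and survival factors, 3 were tested. Of these, 2 varied beyond counting noise (76.7% of all genes tested), 0 beyond the usual spread (3.18% of all) and 1 was highest in tumor 3 (30.1% of all). That gene was Cxcl12, with 121, 194, 288 and 233 counts, whereas Tnfsf13 and Tnfsf13b were highest in tumor 2. Ccl19 and Ccl21a had 0 counts.

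Plasma cell genes gave mixed levels. Of 12 listed, 10 were tested, 7 varied beyond counting noise (76.7% of all genes tested), 1 (Jchain) beyond the usual spread (3.18% of all), and 5 of 10 were highest in tumor 3 (30.1% of all). Irf4, a factor of plasma cell differentiation, was highest in tumor 3 at 3.209 CPM, against 0.9515 to 1.394 CPM in the others. Derl3 and Fkbp11, of the secretory machinery, were lowest in tumor 3, at 2.838 and 7.528 CPM. Sdc1 and Xbp1, which epithelial cells also express, reached means of 1004 and 245.3 CPM, far above the antibody genes. Tnfrsf17, the plasma cell receptor BCMA, had 1 count over all tumors, and Slamf7 did not exceed 3 counts in any.

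The receptors that carry or bind antibody were all measured. Pigr had 29, 104, 134 and 110 counts, and so was lowest in tumor 1. Igkc was lowest in tumor 1 too, whereas Igha was lowest in tumor 4 and Ighm in tumor 2. Pigr varied beyond counting noise (adjusted p = 5.84e-16) and not beyond the usual spread (adjusted p = 0.545 by edgeR). Fcgr2b, Fcgr3 and Fcgr4 were highest in tumor 3, at 2.335, 2.103 and 2.662 times the mean of the others. Fcgrt, the neonatal Fc receptor, was lowest there, at 0.5021 times. Of the 7 genes of this list, 6 varied beyond counting noise (76.7% of all genes tested), 0 beyond the usual spread (edgeR, 2 at an unadjusted p under 0.05, 3.18% of all called), and 6 were highest in tumor 3 (30.1% of all).

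Gene lists of some other cell types were also higher in tumor 3. The summed CPM of 5 pan-leukocyte genes was 1.99 times the mean of the other tumors. Of these genes, 5 of 5 were highest in tumor 3, beside 30.1% of all genes tested. The 8 T cell genes stood at 3.06 times, with 7.702, 8.131, 23.69 and 7.374 CPM, but much of this was Cd2, which T cells and some B cells share and which had 9, 7, 102 and 18 counts. Without Cd2 the other 7 genes gave 6.712, 7.318, 11.11 and 5.233 CPM, and tumor 3 stood at 1.73 times. Cd3g and Trbc2 were highest in tumor 3 but passed 1 CPM only through it, whereas Lck was lowest there, at 2.345 CPM. The 4 red blood cell genes stood at 2.84 times, with 38.62, 31.25, 107.9 and 44.13 CPM. Much of this was Hbb-bt, with 13.86, 14.87, 70.22 and 22.48 CPM, at 4.113 times. Hba-a1, Hba-a2 and Hbb-bs stood at 2.563, 2.083 and 1.591 times. All 4 were highest in tumor 3, beside the same 30.1%. The neutrophil genes stood at 1.49 times, plasmacytoid dendritic cell genes at 1.4 and macrophage genes at 1.39. The endothelial genes stood at 1.28 times, fibroblast genes at 1.23, alveolar type 2 genes at 1.07 and epithelial genes at 0.812. The 5 natural killer genes stood at 2.65 times, but at only 0.2201, 1.045, 1.851 and 0.8326 CPM, and 0 of them reached a mean of 1 CPM. Of these 5 genes, 2 did not exceed 3 counts in any tumor, among them Ncr1. The part of blood or of other leukocytes in the antibody counts was not tested.

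**Figure D4:**
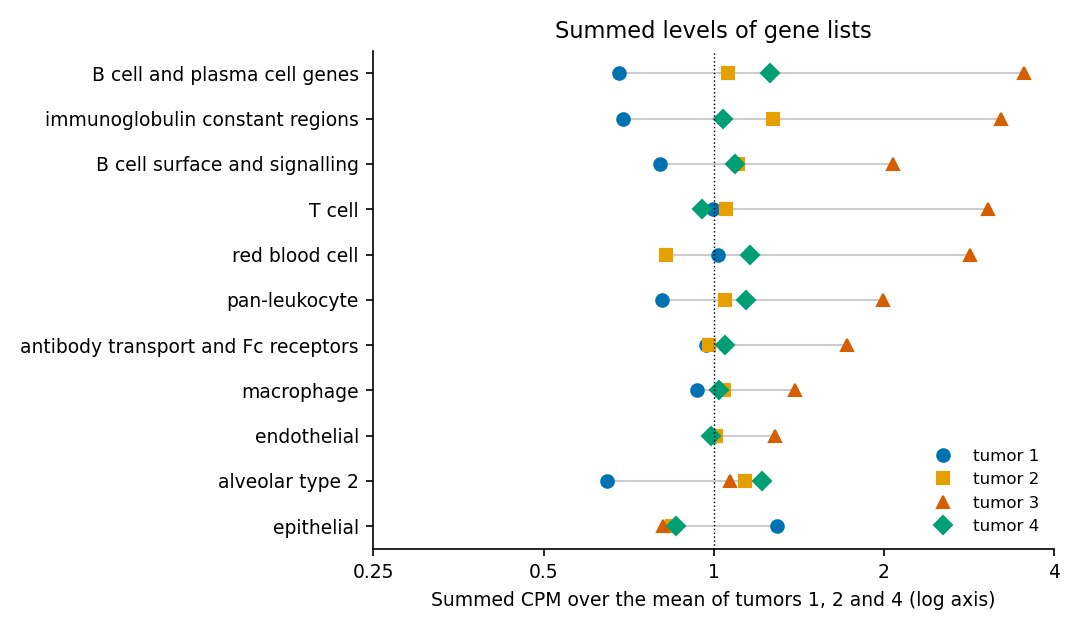
Summed CPM of each gene list in each tumor, divided by the mean of tumors 1, 2 and 4 (log axis), with 1 point per tumor and a dotted line at 1. Tumor 3 lies at 3.54 for the 8 B cell and plasma cell genes, 3.06 for T cell genes (1.73 without Cd2), 2.84 for red blood cell genes and 1.99 for pan-leukocyte genes, and at 0.812 for epithelial genes. In tumor 3, Hbb-bt gave 70.22 of the 107.9 CPM of red blood cell genes.

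Set against the pan-leukocyte sum of the same tumor, the members separated. Igha per 100 CPM of pan-leukocyte genes was 5.42, 3.01, 12.3 and 2.25 CPM in tumors 1 to 4, so tumor 3 remained 3.45 times the mean of the others. Igkc stood at 2.47 times on this scale, Jchain at 3.42 times and Ighm at 1.67 times. Ms4a1 and Mzb1 stood at 1.31 and 1.12 times, and Pou2af1 at 0.836 times. Cd79b and Cd79a were lower in tumor 3 than the mean of the others, at 0.659 and 0.544 times. Ighg1 stood at 0.461 times. These ratios are descriptions of 4 libraries and carry no test, and those of Ms4a1, Cd79a, Pou2af1 and Mzb1 rest on 13 counts or fewer per tumor.

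Genes with the profile most like each tested member over the 4 tumors were found by the root mean square difference of log2 CPM centred on each gene's mean. Nearest to Igha were Cd3g, of the T cell receptor complex, Cxcr6, a chemokine receptor of T cells, and Ivl, with differences of 0.22, 0.326 and 0.358. Cd3g had 0.55, 0.581, 3.33 and 0.357 CPM and Cxcr6 0.99, 0.929, 5.31 and 0.952 CPM, so both were above 1 CPM only in tumor 3. Nearest to Igkc were Slpi, a secreted protease inhibitor, F7 and Znf41-ps, at 0.111, 0.149 and 0.164. Znf41-ps, with 0.33, 0.813, 3.08 and 0.833 CPM, was likewise above 1 CPM only in tumor 3. Genes that pass the filter through tumor 3 are high there by selection, so their closeness to Igha or Igkc carries no weight. Nearest to Ighm were Scn7a, Ablim3 and Atp6v0d2, at 0.072, 0.096 and 0.097. Nearest to Cd79b were H2-Q2, an MHC class I gene, Gm16292 and Casp4, at 0.038, 0.047 and 0.059. The mean profile of the 4 tested members lay nearest to Cacna1c, Sirpb1c, Alox5ap, Rab32 and Gm15706. With only 4 tumors many genes come close to any profile, so these are descriptions.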

How the data were processed

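RNA of 4 tumors was measured, with 1 library per tumor. Per the labels and the study's methods, stranded libraries of polyadenylated RNA were prepared from 500 ng of RNA and sequenced as single-end reads of 85 bases. The submitters' processing notes name bcl2fastq 2.17, cutadapt 1.4.2, HISAT2, featureCounts 1.4.4 and mm10, and strand setting and annotation release are not given in the sources used here. The authors deposited raw counts per Ensembl gene, and a table of log2 normalised counts, used here only for alternative library sizes. Combined and single tables held equal values in 156068 of 156068 cells.

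The members and lists were chosen with earlier results of these data known. Effective sizes were TMM (edgeR 4.0.16, R 4.3.3). Testing was limited to genes averaging 1 CPM or more, and 0.5 was added to counts (1 to sizes) before log2. Both spread tests were tested on simulated data with known changes. The labels do not say whether the tumors came from separate mice, so p-values measure only the spread between these 4 samples. Lengths are unions of GENCODE M21 exons (GRCm38, the sequence of mm10). Of 132 listed genes, 125 matched by symbol and 4 by ID.

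The genes named are the 8 members, list genes with a mean of at least 1 CPM or with at most 3 counts in every tumor, the 3 nearest genes to each tested member, the 5 nearest to their mean, and the 3 most abundant variable genes of each family per tumor. Genes read for a list with few counts, such as Ighg2c and Iglc2, were named as parts of a composition. Alternatives were other size factors, filters, lengths, dispersions and added counts, and leaving out each tumor. No paired comparison of groups applied, since there is 1 group, and only genes were paired, within tumors. Some items of the genotype and gene lists are not reported here.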

Additional observations from a re-analysis of the deposited data

Results flagged for a closer look

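With 4 tumors, a value was marked when the ratio of its gap to the nearest other tumor over the whole range exceeded Dixon's critical value at 95%. Of 47 values tested 5 were marked, where chance gives about 1 in 20, or 2.35. Tumor 3 stood apart in the summed CPM of T cell genes (gap 0.916 of the range), of antibody transport and Fc receptor genes (0.867) and of endothelial genes (0.929), each time as the highest. Tumor 1 stood apart as the highest in epithelial genes (0.879). Tumor 4 stood apart in the share of Ighg3 among heavy chain counts (0.86), which rests on 3 counts. None of the 8 B cell and plasma cell genes was marked. No explanation was tested for any of these values.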

How the results depend on the processing

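No paired comparison of groups was possible because there is 1 group. Over 56 results and 307 alternative values, 280 were classed as the same, 15 lost a call, 9 moved and 3 reversed. Differences between genes classed as the same kept their sign, but some shifted by more than the spread between tumors. Without division by length, Igkc minus Cd79b went from 2.03 to 0.602 on the log2 scale, with an SD of 0.989 between tumors. Tumor 3 carried the calls beyond the usual spread: leaving out each tumor in turn gave 0 to 2 members called. Over all genes, 312 to 344 were called in these settings, of 14120 to 14256 tested. Cd79b lost its call beyond counting noise without tumor 1 (adjusted p = 0.268), and Igha and Jchain without tumor 3 (0.0881 and 0.188). Ighg2b lost its call beyond the usual spread by library size only (adjusted p = 0.0568), without a filter (0.0756), with the dispersion fitted by DESeq2 (0.199) and without tumor 2 or 4 (0.897 and 0.845). Blk lost its call without a filter (0.0628), with the DESeq2 dispersion (0.602) and without tumor 1 or 2 (0.122 and 0.204). With the level of 1 CPM required over tumors 1, 2 and 4, a choice made after seeing the data, 0 B cell surface genes were called beyond the usual spread (edgeR) and 1 T cell gene was highest in tumor 3. Leaving out Cd2, also chosen then, brought the T cell sum of tumor 3 to 1.73 times the others. Order depended on length. At the low end, with no division by length, Mzb1 minus Pou2af1 became -0.278 and Pou2af1 minus Ms4a1 -0.639 on the log2 scale. With the longest transcript Pou2af1 minus Ms4a1 was -0.367 and Ms4a1 0.2806 CPM per kilobase. Higher up, mean CPM put Igha (10.82) above Ighm (9.999), the reverse of their order by mean CPM per kilobase. Counting only variable genes over 3 counts raised the share of the most abundant gene, since fewer genes enter: for Ighv to a mean of 80.2% and 70.6% in tumor 3, for Igkv to 66.7% and 70.8%. Depth limits Ms4a1, Cd79a, Pou2af1 and Mzb1, at 15 to 29 counts each, and the Ighv genes.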
